A study of Mus musculus with 8 samples.

Results

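Fatty acid oxidation and ketone body formation were followed through 34 genes that encode the steps from acyl-CoA formation to acetyl-CoA and 3-hydroxybutyrate. The members were chosen by name, with earlier results of these data known, and all 34 were among the 14317 mouse genes in the table. They were set out by the place of their products: 2 genes of fatty acid activation, 19 of mitochondria, 7 of peroxisomes, 4 whose products are found in both organelles, 1 gene of ketone body formation (Bdh1) and 1 gene of fuel selection (Pdk4).

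The livers came from female mice on a Western Diet (WD) that carried an empty vehicle pellet (Con-Veh) or a 10 mm pellet of dihydrotestosterone (Con-DHT), an androgen that is not converted to estrogen, for 8.5 weeks from 7 weeks of age. Each group had 4 mice and each mouse gave 1 library of liver RNA. The labels give the genotype as WT in both groups, and by the study's methods the mice were fasted overnight before the tissues were taken. The comparison addresses how an androgen excess alters hepatic gene expression under a high-calorie diet, in whole liver and at 1 time point.

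In a liver cell, a long-chain fatty acid is first joined to coenzyme A. It then enters mitochondria as a carnitine ester, or enters peroxisomes directly through an ABC transporter, and each turn of beta-oxidation removes an acetyl-CoA by dehydrogenation or oxidation, hydration, a second dehydrogenation and thiolysis. Peroxisomes shorten very long, branched and dicarboxylic chains and hand the products on, whereas mitochondria complete the oxidation of the common chain lengths, and in fasting much of the acetyl-CoA of the liver leaves as ketone bodies.

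The values are normalised read counts, that is, reads per gene divided by 1 size factor for each library. Libraries held between 13123962 and 17815944 reads on mouse genes, and no member had fewer than 366 reads in any library. The libraries carried the hepatocyte markers at high levels in both groups. Traces of skeletal muscle differed between them: the summed normalised read count of 4 muscle markers was 1728 in Con-DHT 3 and 849 in Con-DHT 4, 191 in Con-Veh 2, and between 6.99 and 25.2 in the remaining 5 libraries. The summed level of 5 adipocyte markers was also highest in Con-DHT 3 and Con-DHT 4, at 2013 and 2532 against 628 to 1000 in the others. Both tissues express genes of fatty acid oxidation, so the main counts below are also given without these Con-DHT libraries, and the part of muscle or adipose RNA in them was not tested further.

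Of the 34 members, 3 rose in Con-DHT and none fell (limma, Benjamini-Hochberg adjusted p, or adj P, of at most 0.05 over 14312 tested genes). These were Acsl1 of activation, Cpt1a of mitochondrial entry and Abcd3 of peroxisomal entry. The study also measured Acsl1 and Cpt1a by qRT-PCR, having chosen them for their change in its RNA-seq. It reported both as unchanged by DHT in that assay, so these rises were not reproduced there. Among all tested genes 7.21% passed, 4.6% as higher and 2.61% as lower in Con-DHT, so a count of 3, or 8.82% of the members, lay near the background. In 7 members every Con-DHT library lay above every Con-Veh library, namely these 3 with Acad11, Hadhb, Decr2 and Acaa1a. That is 20.6% of the members against 8.49% of all tested genes, and no member had the opposite order.

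Most members leaned upward by little. The log2 fold change was above 0 in 24 of 34 members (70.6%) and in 48.5% of all tested genes. Its median was 0.14 over the members and -0.0081 over all tested genes. At an unadjusted p of at most 0.05, 10 members were higher and none was lower, a share of 29.4% against 12.2% of all tested genes. The genes share libraries and are not independent of each other, so these shares are descriptions and carry no p.

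**Figure D1:**
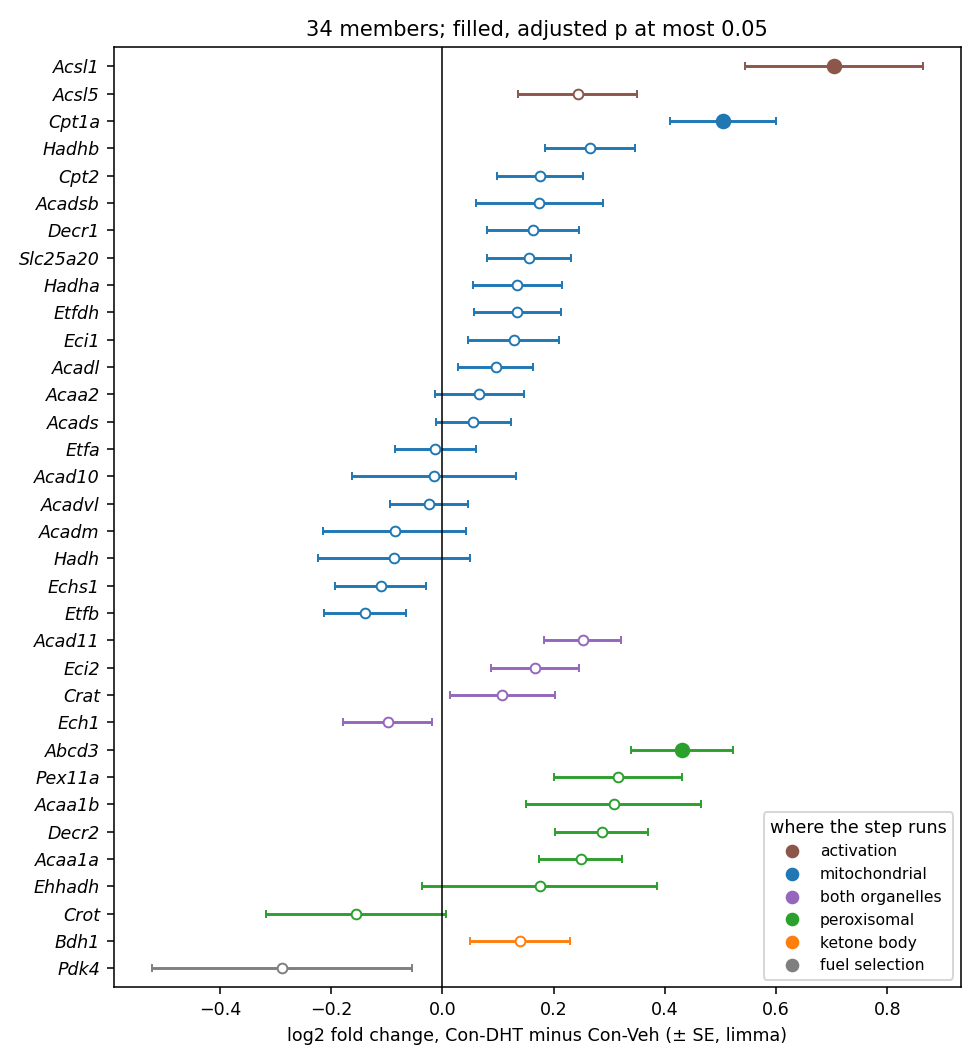
The log2 fold change of normalised read counts (Con-DHT minus Con-Veh, horizontal axis) is plotted for each of the 34 members, with bars giving the SE of limma and colours the place of the step. The 3 filled points, Acsl1, Cpt1a and Abcd3, passed the threshold, and 10 members lie to the left of 0.

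Without the 2 Con-DHT libraries that held muscle markers, an alternative chosen after seeing the data, 1 of 34 members passed and 3.32% of all tested genes did. Abcd3 then had an adj P of 0.046, and both Acsl1 (log2 fold change 0.76) and Cpt1a (0.49) had 0.067. From all 8 libraries the log2 fold changes were 0.70 for Acsl1 and 0.50 for Cpt1a. Abcd3 had 0.50 without the 2 libraries and 0.43 with all 8. The fit without them had fewer samples, and the cause of the lost calls was not tested. Spike-in RNA took 1.68% (Con-Veh 4) to 3.61% (Con-Veh 1) of the counted reads in Con-Veh and 2.22% to 2.75% in Con-DHT. Scaling libraries by it carries these differences into every gene, and it raised the median log2 fold change of all genes to 0.19. With that scaling 0 of 34 members passed, against 4.45% of all genes. In that fit limma's prior degrees of freedom were infinite, so that each gene took the spread of the trend and its own spread carried no weight. Refits of the same scaling, added after seeing the data, also called 0 members, with robust moderation (4.12% of all genes) and with each gene's own spread (1.35%). Of the calls over all genes, 63.8% were higher in Con-DHT with the deposited scaling and 88.2% with spike-in scaling, under which 33 of 34 members, all but Pdk4, and 77% of all tested genes had a log2 fold change above 0. With equal library totals without the Mup genes, 7 members passed, against 9.01% of all genes. Count tests on recovered reads called 3 members by edgeR (7.15% of all genes) and 7 by DESeq2 (11%). The 7 were in each case the 3 named with Acad11, Hadhb, Decr2 and Acaa1a.

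Acsl1 encodes the main long-chain acyl-CoA synthetase of liver, which activates fatty acids for oxidation or esterification. Its normalised read counts were 15785, 18658, 17675 and 23218 in Con-Veh and 36481, 27397, 24896 and 34221 in Con-DHT. The groups did not overlap, although the highest Con-Veh library lay close to the lowest Con-DHT library. Group means were 18834 ± 3156 and 30749 ± 5490 (SD over 4 mice), which is 0.70 ± 0.16 (SE) on the log2 scale or 1.63-fold (adj P 0.026). The call was lost when any of Con-Veh 1, Con-Veh 2, Con-Veh 3, Con-DHT 1 or Con-DHT 4 was left out (adj P 0.063 to 0.067). With 1 library left out in turn, the log2 fold change stayed between 0.62 and 0.81. Acsl1 also missed the threshold with the replicate number as a block (adj P 0.0505) and with spike-in scaling (0.090).

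Acsl5, a second long-chain synthetase, had 2802, 2619, 2736 and 3265 in Con-Veh and 3582, 3565, 2757 and 3654 in Con-DHT. Its groups overlapped through Con-DHT 3 alone, which lay among the Con-Veh libraries, and the log2 fold change was 0.24 ± 0.11 (adj P 0.21). Per kb of transcript, Acsl1 made up 82.9% to 86.9% of the summed level of the Acsl synthetases in Con-Veh and 87.4% to 90.0% in Con-DHT. Activation took 8.59% to 10.7% of all member reads in Con-Veh and 11.3% to 14.5% in Con-DHT, a description chosen after the values were seen.

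Entry into mitochondria is the step at which malonyl-CoA, the precursor of fatty acid synthesis, restrains oxidation. Cpt1a, the liver form of carnitine palmitoyltransferase 1 of the outer membrane, had normalised read counts of 12416, 10600, 9918 and 11304 in Con-Veh and 14982, 15908, 14856 and 16871 in Con-DHT. Every Con-DHT library was clear of the Con-Veh range. The log2 fold change was 0.50 ± 0.10 (SE), 1.42-fold, with means of 11059 ± 1067 and 15654 ± 937 and an adj P of 0.012. Of the 3 members that rose, it kept its call in most fits: it passed with each of the 8 libraries left out in turn and in 10 of 11 other settings, the exception being the spike-in scaling (adj P 0.30).

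The other carnitine genes did not pass. Slc25a20, the carnitine-acylcarnitine carrier, went from 2853 ± 133 to 3183 ± 248 (log2 fold change 0.16 ± 0.08, adj P 0.25). Cpt2, which reforms acyl-CoA on the matrix side, went from 2855 ± 225 to 3221 ± 169 (0.18 ± 0.08, adj P 0.20). In each of them 3 of 4 Con-DHT libraries lay above all Con-Veh libraries. The difference between the change of Cpt1a and that of Cpt2 was not tested, and the ratio of Cpt1a to Cpt2 per kb overlapped between the groups, at 1.90 to 2.64 in Con-Veh and 2.41 to 2.94 in Con-DHT.

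Abcd3 encodes PMP70, the ABC half-transporter that brings long, branched and dicarboxylic acyl-CoA into peroxisomes. Con-Veh livers had 6012, 6985, 7076 and 7115 normalised read counts, and Con-DHT livers had 9927, 9246, 8097 and 9388. All Con-DHT values exceeded all Con-Veh values, and Con-Veh 1 stood below the rest of its group. From 6797 ± 526 to 9164 ± 769 the log2 fold change was 0.43 ± 0.09 (SE), 1.35-fold, with an adj P of 0.020. Leaving out Con-DHT 1 or Con-DHT 2 gave 0.057, the replicate block 0.068 and spike-in scaling 0.41.

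**Figure D2:**
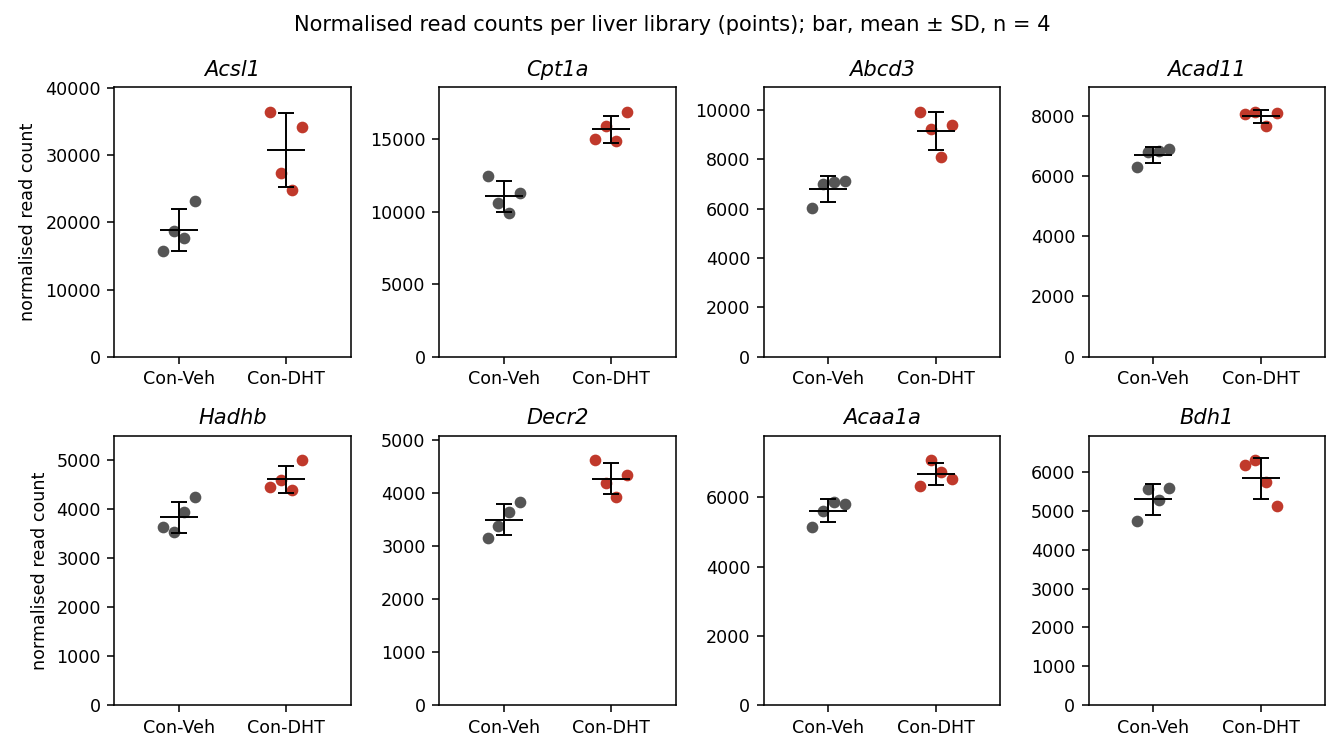
Normalised read counts (vertical axes, from 0) of 8 members are plotted for each library, with points for the 4 mice of a group and a bar for the mean ± SD. In 7 of the panels every Con-DHT point lies above every Con-Veh point, and in the panel of Bdh1 the groups overlap.

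The promoters of the 3 members that rose are shown because these genes stand at the entry of a fatty acid into each route. RefSeq (GRCm38.p6) lists 2 starts for Acsl1, on the plus strand of chromosome 8 at chr8:46470787-46471086 and chr8:46490716-46491015, 1 for Cpt1a on the plus strand at chr19:3323051-3323350, and 2 for Abcd3 on the minus strand at chr3:121815253-121815552 and chr3:121814860-121815159. Each window runs from 250 bases before the start to 50 bases after it, and capitals mark a match to a motif.
Acsl1, first start: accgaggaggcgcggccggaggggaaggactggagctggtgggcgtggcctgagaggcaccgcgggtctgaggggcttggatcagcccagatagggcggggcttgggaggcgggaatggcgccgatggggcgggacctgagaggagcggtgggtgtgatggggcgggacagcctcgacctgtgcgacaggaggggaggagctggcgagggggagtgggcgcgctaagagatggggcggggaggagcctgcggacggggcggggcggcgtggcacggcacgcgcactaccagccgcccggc
Acsl1, second start: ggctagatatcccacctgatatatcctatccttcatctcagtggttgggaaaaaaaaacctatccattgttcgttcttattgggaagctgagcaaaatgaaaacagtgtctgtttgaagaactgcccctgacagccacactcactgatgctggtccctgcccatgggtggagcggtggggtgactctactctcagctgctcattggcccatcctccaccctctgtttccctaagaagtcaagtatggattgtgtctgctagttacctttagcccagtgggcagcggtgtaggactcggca
Cpt1a: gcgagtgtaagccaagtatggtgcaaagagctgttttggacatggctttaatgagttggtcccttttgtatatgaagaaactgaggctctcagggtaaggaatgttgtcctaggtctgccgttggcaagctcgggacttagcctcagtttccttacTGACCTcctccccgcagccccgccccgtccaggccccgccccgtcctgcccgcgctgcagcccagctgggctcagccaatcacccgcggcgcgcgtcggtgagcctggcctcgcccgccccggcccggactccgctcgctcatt
Abcd3, first start: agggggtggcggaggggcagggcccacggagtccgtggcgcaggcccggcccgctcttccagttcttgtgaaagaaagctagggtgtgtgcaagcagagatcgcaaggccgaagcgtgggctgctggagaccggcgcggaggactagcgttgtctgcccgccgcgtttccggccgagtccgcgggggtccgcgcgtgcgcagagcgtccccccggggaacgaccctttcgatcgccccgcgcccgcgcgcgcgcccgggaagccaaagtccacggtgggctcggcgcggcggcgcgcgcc
Abcd3, second start: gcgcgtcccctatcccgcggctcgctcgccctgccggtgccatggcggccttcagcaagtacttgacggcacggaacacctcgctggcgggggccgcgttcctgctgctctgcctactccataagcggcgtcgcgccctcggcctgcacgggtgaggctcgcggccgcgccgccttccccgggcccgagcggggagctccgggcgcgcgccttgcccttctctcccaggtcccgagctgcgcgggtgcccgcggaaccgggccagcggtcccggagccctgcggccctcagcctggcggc

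These windows differ in composition: G and C made up 74.0% of the first Acsl1 window and 50% of the second, 62.3% in Cpt1a, and 73.7% and 76.3% in Abcd3. The capitals in Cpt1a spell TGACCT, which is AGGTCA on the other strand, the hexamer bound by many nuclear receptors, from 94 to 89 bases before the start. AGGTCA was searched on both strands in the promoters of the 31 members that matched the RefSeq table and was found in 4 of 34 windows (11.8%), those of Acadm, Acadvl, Cpt1a and Echs1, against 16.3% of all 32851 promoters. A pair of AGGNCA hexamers with 1 base between them, the arrangement known for PPARA with its partner RXR, was in 0 of 34 windows and in 0.381% of all promoters. TTCNNNGAA, the palindrome of STAT factors, was in 3 of 34 (8.82%) and in 8.30% of all promoters. The shares were not tested, and a missing match says only that the letters are not in these windows.

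Within mitochondria, the first step of each turn is carried out by acyl-CoA dehydrogenases matched to chain length. None of the 7 dehydrogenases passed, and the median of their log2 fold changes was 0.056. Acadvl, for very long chains, had 7777 ± 291 in Con-Veh and 7647 ± 254 in Con-DHT (-0.02 ± 0.07, adj P 0.88). Acadl, for long chains, had 4473 ± 205 and 4778 ± 177 (0.10 ± 0.07, adj P 0.44). The short-chain enzyme Acads differed by 0.06 ± 0.07 (adj P 0.68), with libraries at 2414 to 2728 in Con-Veh and 2522 to 2785 in Con-DHT. In these 3 genes the libraries of both groups overlapped and the SE was 0.07.

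Acadm, for medium chains and the most abundant dehydrogenase, was more spread, with 10809, 11853, 12900 and 15500 in Con-Veh and 10494, 13566, 12687 and 11180 in Con-DHT. The groups were interleaved (-0.09 ± 0.13, adj P 0.74), and the sign turned without Con-Veh 4. Acadsb, which acts on short branched chains from isoleucine, went from 1653 ± 255 to 1851 ± 130 (0.17 ± 0.11, adj P 0.40), and its log2 fold change was 0.058 without Con-Veh 1. Acad10 was low, at 656 ± 113 and 648 ± 99.8 (-0.02 ± 0.15, adj P 0.97), and its sign also changed with the library left out.

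Acad11 acts on 4-hydroxy acids and is found in both organelles. Con-Veh libraries had 6301, 6797, 6830 and 6890, and Con-DHT libraries had 8058, 8130, 7664 and 8079. There was a clear gap between the groups. Its log2 fold change of 0.25 ± 0.07 had an adj P of 0.056 and missed the threshold, with 0.068 by edgeR and 8.9e-04 by DESeq2.

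Later steps of the mitochondrial spiral are shared by the trifunctional protein, of which Hadha gives the alpha and Hadhb the beta subunit, and by soluble enzymes for shorter chains. Hadhb, the thiolase subunit, had 3642, 3529, 3941 and 4239 in Con-Veh and 4457, 4593, 4389 and 4996 in Con-DHT. The groups were apart by a small gap, and the log2 fold change was 0.27 ± 0.08 (adj P 0.078). Hadha had 8503, 8230, 8894 and 9295 in Con-Veh and 9262, 9259, 9312 and 10535 in Con-DHT. Its groups met at their edges, Con-DHT 4 stood above its group, and the log2 fold change was 0.14 ± 0.08 (adj P 0.36).

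The ratio of Hadha to Hadhb per kb of transcript was between 1.12 and 1.19 in Con-Veh and between 1.03 and 1.08 in Con-DHT. The groups did not overlap in this ratio, which was chosen after the values were seen and was not tested. The genes lie head to head on chromosome 5, with their RefSeq starts 273 bases apart, and their promoter windows share 228 bases. The Hadhb window is shown because the same 9 bases, TTCTCTGAA as read along Hadhb, match the STAT palindrome in both promoters. It lies on the plus strand at chr5:30155003-30155302 (GRCm38.p6), and the match is in capitals.
Hadhb: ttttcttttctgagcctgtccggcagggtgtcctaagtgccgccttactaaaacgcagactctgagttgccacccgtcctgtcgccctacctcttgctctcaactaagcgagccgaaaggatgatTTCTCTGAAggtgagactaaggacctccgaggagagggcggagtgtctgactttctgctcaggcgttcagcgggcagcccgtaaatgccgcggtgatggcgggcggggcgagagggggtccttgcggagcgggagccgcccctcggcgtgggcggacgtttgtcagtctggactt

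Soluble enzymes of the later steps varied in both directions and none passed. Echs1, the short-chain enoyl-CoA hydratase, went from 2955 ± 176 to 2741 ± 250 (-0.11 ± 0.08, adj P 0.46). Hadh, the short-chain 3-hydroxyacyl-CoA dehydrogenase, had 5911 ± 792 and 5583 ± 923 (-0.09 ± 0.14, adj P 0.76). Acaa2, the mitochondrial thiolase, stood at 12763 ± 678 and 13356 ± 444 (0.07 ± 0.08, adj P 0.67). The signs of Echs1 and Hadh depended on the scaling between libraries.

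Unsaturated fatty acids need auxiliary isomerases and reductases to re-enter the spiral. Decr2, the peroxisomal 2,4-dienoyl-CoA reductase, had 3152, 3376, 3640 and 3816 in Con-Veh and 4609, 4177, 3914 and 4342 in Con-DHT. The highest Con-Veh library was just below the lowest Con-DHT library, and the log2 fold change was 0.29 ± 0.08 (adj P 0.069). Its mitochondrial counterpart Decr1 had 3886 ± 312 and 4348 ± 304 (0.16 ± 0.08, adj P 0.28), with overlapping groups. Eci1 and Eci2, the enoyl-CoA isomerases, differed by 0.13 ± 0.08 (adj P 0.40) and 0.17 ± 0.08 (adj P 0.24). Ech1, a dienoyl-CoA isomerase, was the exception in sign at -0.10 ± 0.08 (adj P 0.51), with 7326 ± 376 in Con-Veh and 6851 ± 495 in Con-DHT.

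Electrons from the dehydrogenases reach the respiratory chain through the electron transfer flavoprotein and its oxidoreductase. None of the 3 genes passed. Etfa had 5711 ± 347 in Con-Veh and 5657 ± 199 in Con-DHT (-0.01 ± 0.07, adj P 0.94), and Etfb had 1819 ± 109 and 1652 ± 110 (-0.14 ± 0.07, adj P 0.29). Etfdh, the oxidoreductase, had 5178 ± 312 and 5685 ± 374 (0.13 ± 0.08, adj P 0.34). Over the 19 mitochondrial members the median log2 fold change was 0.096, with 12 above 0, 7 below it, 1 passed and 2 without overlap. Without Con-Veh 1 that median was 0.058. Of all tested genes, 48.5% were above 0, 4.6% passed as higher and 8.49% were higher without overlap.

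In peroxisomes, 6 of 7 members had a log2 fold change above 0, against 48.5% of all tested genes, and the median was 0.29. Of these members 1 passed and 3 were higher without overlap, against 4.6% and 8.49% of all tested genes. Chains are oxidised in peroxisomes by the bifunctional enzyme Ehhadh and by the thiolases Acaa1a and Acaa1b. Acaa1a had 5154, 5611, 5875 and 5818 in Con-Veh and 6321, 7071, 6744 and 6530 in Con-DHT. No library of one group reached the other, and the log2 fold change was 0.25 ± 0.07 (adj P 0.077). Acaa1b had 25971, 35193, 40925 and 34560 in Con-Veh and 47488, 43975, 36647 and 39705 in Con-DHT. It varied more, its groups overlapped, and its log2 fold change was 0.31 ± 0.16 (adj P 0.27), or 0.18 without Con-Veh 1.

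The thiolase transcripts are near copies: their longest coding transcripts were 96.6% identical over 1428 aligned bases, with an identical run of up to 327 bases, and reads that fit both genes were not counted, since only uniquely mapped reads were. Their summed value was therefore tested as 1 quantity, and it gave a log2 fold change of 0.30 with an exact two-sided permutation p of 0.086 over 70 arrangements, where 0.029 is the smallest possible. With 1 library left out it ranged from 0.19 without Con-Veh 1 (exact permutation p 0.14) to 0.38 without Con-Veh 3, where the groups were apart and the exact permutation p of 0.029 was the smallest that 7 libraries allow. Acaa1b made up 83.4% to 87.4% of the sum in Con-Veh and 84.5% to 88.3% in Con-DHT, and the ranges overlapped.

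Ehhadh had 17197, 14078, 20178 and 18966 in Con-Veh and 17947, 15737, 16951 and 31409 in Con-DHT. Con-DHT 4 was far above all other libraries and the remaining 3 lay within the Con-Veh range. The log2 fold change of 0.17 ± 0.21 (adj P 0.67) became -0.05 without that library. Pex11a, which promotes peroxisome division, had 1687, 2050, 2227 and 2185 in Con-Veh and 2560, 2649, 2095 and 2849 in Con-DHT. All of its Con-DHT libraries but Con-DHT 3 were above Con-Veh, and the log2 fold change was 0.32 ± 0.12 (adj P 0.13).

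Shortened chains leave peroxisomes as carnitine esters made by Crot (medium chains) and Crat (acetyl and short chains). Crot, the peroxisomal member with the opposite sign, had 13050, 12921, 9312 and 14052 in Con-Veh and 12981, 9834, 8843 and 12679 in Con-DHT. The groups were mixed, and the log2 fold change was -0.16 ± 0.16 (adj P 0.62). Crat, found in both organelles, had 2346 ± 205 and 2533 ± 282 (0.11 ± 0.09, adj P 0.54). Over the 4 members of both organelles the median was 0.14. The difference between the peroxisomal and the mitochondrial median was not tested, because genes of a list are no replicates.

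**Figure D3:**
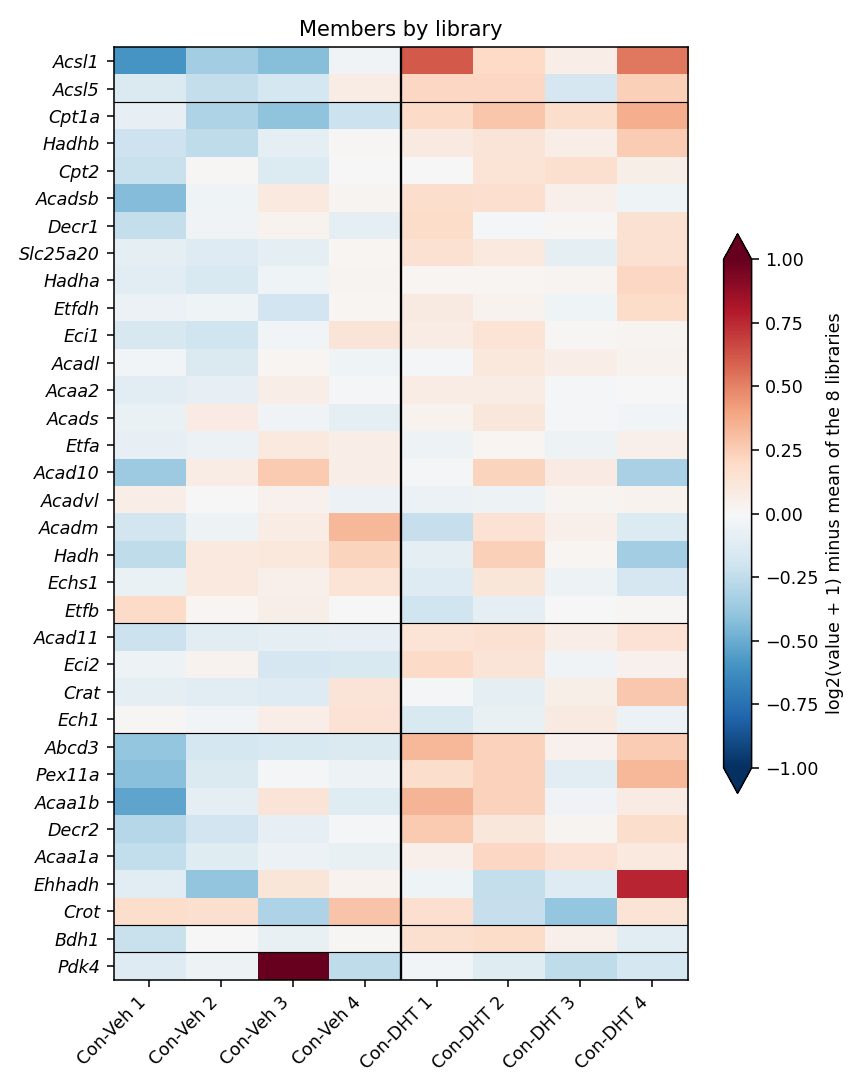
Each cell gives log2(normalised read count + 1) of a member (row) in a library (column) minus its mean over the 8 libraries, with the colour scale running from -1 to 1 and rows ordered by place of the step and then by log2 fold change. Acsl1, Cpt1a and Abcd3 change colour at the line between the groups, while Ehhadh in Con-DHT 4 and Pdk4 in Con-Veh 3 stand out as single libraries.

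Mean-centred log2 values of the 7 peroxisomal members gave each library an average of -0.26, -0.14, -0.05 and -0.01 in Con-Veh and 0.18, 0.08, -0.06 and 0.26 in Con-DHT. Con-DHT 3 lay among the Con-Veh libraries. For the 19 mitochondrial members the averages were -0.13, -0.06, -0.0064 and 0.03 in Con-Veh and 0.02, 0.10, 0.03 and 0.03 in Con-DHT. The mitochondrial averages also overlapped and spanned a smaller range. Con-Veh 1 was the lowest library in both groups of members.

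Ketone bodies are formed in liver mitochondria from acetyl-CoA, and Bdh1 carries out the last reduction, of acetoacetate to 3-hydroxybutyrate. Bdh1 had 4745, 5570, 5271 and 5572 in Con-Veh and 6177, 6295, 5744 and 5126 in Con-DHT. All Con-DHT libraries except Con-DHT 4 exceeded Con-Veh, and the log2 fold change was 0.14 ± 0.09 (adj P 0.39). Acat1, the mitochondrial acetoacetyl-CoA thiolase and named after its value was seen, differed by -0.03 ± 0.10 (adj P 0.88).

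Pdk4 inhibits the pyruvate dehydrogenase complex and so spares carbohydrate when fat is burned. It had 411, 433, 900 and 377 normalised read counts in Con-Veh and 440, 413, 376 and 398 in Con-DHT. Con-Veh 3 alone made the Con-Veh mean higher: the log2 fold change of -0.29 ± 0.23 (adj P 0.51) was -0.0020 without it. Pdk4 in Con-Veh and Ehhadh in Con-DHT were the most variable members, with a coefficient of variation of 46.7% and 35.7%, whereas no other member exceeded 18.6% in either group.

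Levels were compared between members per kb of transcript. Acaa1b was the highest in Con-Veh at 20226 normalised read counts per kb, followed by Acaa2 at 8419, Acadm at 6236, Ehhadh at 5906, Ech1 at 5782 and Acsl1 at 4833. The Con-Veh ranges of Acadm, Ehhadh, Ech1 and Acsl1 overlapped each other, so their order was not settled. In Con-DHT, Acsl1 stood at 7890 per kb. The lowest members were Acadsb at 272, Acad10 at 172 and Pdk4 at 152.

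**Figure D4:**
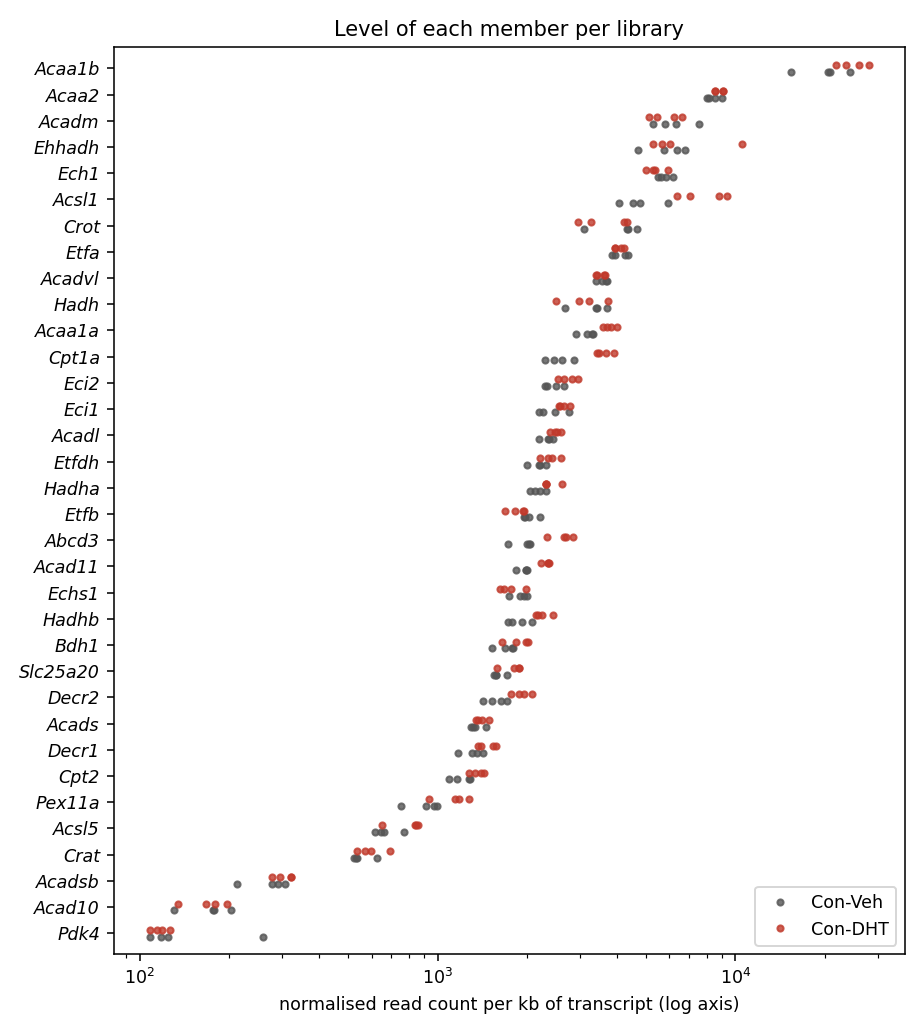
Normalised read counts per kb of transcript (horizontal log axis) are plotted for each member in each library, with Con-Veh in grey and Con-DHT in red and rows ordered by the Con-Veh mean. Acaa1b is the highest and Pdk4 the lowest member in Con-Veh, and Acsl1 is the most abundant member whose groups are apart.

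Altogether the members took 1.35% to 1.59% of the reads on mouse genes in Con-Veh and 1.68% to 1.97% in Con-DHT. The ranges did not overlap. Peroxisomal members held 34.1% to 37.6% of the member reads in Con-Veh and 33.9% to 38.0% in Con-DHT, and mitochondrial members 42.7% to 45.2% and 38.1% to 43.3%. The shares by organelle were chosen after their values were seen. All of these shares depend on a few very abundant liver transcripts in the total and were not tested.

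Beside the members, 32 further genes of oxidation and ketone body metabolism were tested. Where 4.6% of all tested genes rose and 2.61% fell, 5 of these 32 rose and 2 fell, with a median log2 fold change of 0.11. Those that rose were led by Scp2, the peroxisomal thiolase and sterol carrier for branched chains, whose counts went from 33381 ± 2179 to 56719 ± 6388 (0.76 ± 0.13, adj P 0.0063). Phyh, which starts the alpha-oxidation of phytanic acid in peroxisomes, went from 16738 ± 1850 to 26040 ± 1354 (0.64 ± 0.11, adj P 0.0061). In both genes the groups were apart, and both kept their call with each library left out.

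The remaining calls of that list had other roles. Acsl4, a synthetase that favours arachidonic acid, rose by 0.58 ± 0.14 on the log2 scale (adj P 0.034), the carnitine importer Slc22a5 by 0.36 ± 0.08 (adj P 0.022) and Mlycd, which breaks down malonyl-CoA, by 0.26 ± 0.06 (adj P 0.036). Abcd2, a peroxisomal transporter of very long and polyunsaturated chains related to Abcd3, fell from 800 ± 187 to 373 ± 67.3 (-1.09 ± 0.18, adj P 0.0057). Eci3, an isomerase paralog at very low counts, fell from 20.9 ± 5.98 to 4.32 ± 1.34 (-2.03 ± 0.33, adj P 0.0056). It reached the mean filter of 10 through Con-Veh, since its Con-DHT mean was below 10. Abcd2 and Abcd3 thus moved in opposite directions. With 1 library left out in turn, Abcd2 and Eci3 passed in 8 of 8 fits, Slc22a5 in 3, Acsl4 in 2 and Mlycd in 1. Of all 7 genes, Eci3 alone passed in the spike-in fit that set each gene's own spread aside (adj P 0.0067). With robust moderation of that scaling Eci3 (adj P 0.0052) and Scp2 (0.048) passed. With each gene's own spread none of the 7 did (Eci3 0.052).

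Many members are known targets of PPARA, the fatty acid receptor of liver. Ppara itself had 1570, 2365, 2409 and 2034 in Con-Veh and 2947, 3217, 2731 and 2532 in Con-DHT. Its groups were apart, and the log2 fold change of 0.46 ± 0.14 had an adj P of 0.070. Of 23 regulators and known targets, 1 rose, Cyp4a32, a fatty acid omega-hydroxylase with close paralogs (1.19 ± 0.18, adj P 0.0046), none fell, and the median log2 fold change was 0.16. None of 16 peroxisome biogenesis genes and none of 18 genes of general mitochondrial content passed (limma), with medians of 0.040 and 0.0032. For these 3 lists the share over all tested genes was 7.21% passed, 4.6% as higher and 2.61% as lower.

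Markers of some other cell types of the liver differed between the groups. Over all tested genes 2.61% passed as lower in Con-DHT. Of 8 markers of Kupffer cells and macrophages, 4 fell, and their summed normalised read count was 6513 to 8043 in Con-Veh and 4395 to 6014 in Con-DHT. With spike-in scaling none of these 4 passed (adj P 0.31 to 0.93), and Clec4f, 1 of the 4, passed in 2 of 8 fits with a library left out. Of 6 endothelial markers, 2 fell, with sums of 3679 to 4131 and 2927 to 3439. Stab2 passed in 6 of 8 fits with a library left out and missed the threshold with spike-in scaling (adj P 0.88). Lyve1, whose groups overlapped, passed in 2 of 8 such fits. With spike-in scaling Lyve1 passed (adj P 0.023), also with robust moderation (0.025), but not with each gene's own spread (0.69). In bulk liver, fewer cells of a type and less RNA per cell cannot be told apart, and the part of these shifts in the values of the members was not tested. Of 7 hepatocyte markers none passed, with sums of 992491 to 1779823 in Con-Veh and 997980 to 1146724 in Con-DHT. With the deposited scaling, no marker of stellate cells, cholangiocytes, erythroid cells, adipocytes or muscle passed. With spike-in scaling Col1a1, Alas2, Cfd, Ucp1 and all 4 muscle markers passed in the fit that set their own spread aside, for example Myh4 at an adj P of 1.1e-07, but none did with each gene's own spread (Myh4 0.89). With robust moderation Col1a1 (adj P 0.0035) and Alas2 (0.016) passed. The single exocrine pancreas marker tested, Cela1, rose by 0.94 ± 0.23 on the log2 scale (adj P 0.034).

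Several members share exon bases with a neighbouring gene, and whether strand was used in counting is not given in the sources used here. In the reference annotation, Acadvl shared 42.9% of its exon bases with Dvl2 on the opposite strand, Etfb 53.0% with a predicted gene on its own strand, Bdh1 13.7% and Acsl1 9.91% with predicted opposite-strand genes, and Acaa1b 11.4% with Dlec1. Cpt1a, Abcd3, Hadhb and Decr2 had no such neighbour.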

How the data were processed

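RNA from 4 Con-Veh and 4 Con-DHT livers was analysed, with groups and replicate numbers taken from the labels. Each library stands for 1 mouse, and p-values measure the spread between these libraries.

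Per the study's methods and the labels, the authors used bcl2fastq and Trimmomatic for demultiplexing and trimming, STAR for alignment (GRCm39 in the submitters' processing notes), featureCounts of Subread for unique reads over exons, and DESeq2. Spike-in RNA (ERCC) went into the RNA ahead of the libraries. What the authors deposited is a signal: reads per gene over a size factor for each library. Of 14371 features 54 were spike-ins, and none had under 81 reads in all, so weakly expressed genes were absent.

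Whole reads were recovered from the deposited signal by dividing each column by its step, and 100% of values came out whole within 0.01 of a read (13123962 to 17815944 reads on mouse genes per library). Libraries of a group differed beyond counting error (chi-square per degree of freedom 19.2 to 61.6 over 12 pairs). The main test was limma 3.58.1 in R 4.3.3, with lmFit and a trended eBayes, on log2(value + 1) where the mean reached 10 (14312 genes). P-values were adjusted over these genes by Benjamini-Hochberg, and a gene passed at 0.05. The pseudocount slightly understates fold changes of low genes. Alternatives were pseudocounts of 0.1 and 5, filters at 0 or 50, totals made equal without Mup genes, upper-quartile or spike-in scaling (refitted with robust and without moderation, after seeing the data, because the prior degrees of freedom were infinite there), no trend, a replicate block, leaving out each library, and count tests of whole reads, with TMM and quasi-likelihood in edgeR 4.0.16 (1024 genes called) or with DESeq2 1.42.0 (1569 called). The tests were tried on simulated counts.

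The members and lists were chosen with earlier results of these data known. All members are named. Of other lists, genes that passed and Ppara are named, and any further gene is said to have been chosen after its value was seen. Markers of lymphocytes and neutrophils were not analysed here. Transcript lengths and exon overlaps came from GENCODE M21 (GRCm38) and promoters from RefSeq (GRCm38.p6). Thiolase transcripts were aligned with blastn 2.17.0. Sums and plots used Python 3.11.15 with pandas 2.3.3 and matplotlib 3.10.9.

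Results for some genes are not reported here.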

Additional observations from a re-analysis of the deposited data

Results flagged for a closer look

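Single libraries stood apart from their group of 4 in 8 of the 68 groups checked (34 members in 2 conditions) by a gap beyond Dixon's critical value for 4 samples, and chance gives this in about 1 of 20 groups. In Ehhadh, Con-DHT 4 had 31409 against 17947 for the next library, and the log2 fold change of 0.17 was -0.05 (adj P 0.87) without it. In Pdk4, Con-Veh 3 had 900.4 against 433, and the value without it was -0.0020 (adj P 0.99). Hadha was high in Con-DHT 4 at 10535, with a log2 fold change of 0.09 (adj P 0.58) without that library. Crat was high in Con-Veh 4 at 2651, and the value without it was 0.17 (adj P 0.37). Acsl5 was low in Con-DHT 3 at 2757, and its log2 fold change without that library was 0.34 (adj P 0.056). Acad11 was low in Con-Veh 1 at 6301 and in Con-DHT 3 at 7664, with values of 0.22 (adj P 0.12) and 0.27 (adj P 0.071) when one or the other was left out. Abcd3 was low in Con-Veh 1 at 6012, and it still passed without it (0.37, adj P 0.046). Con-DHT 3 and Con-DHT 4, which held the most muscle marker RNA, account for 4 of these 8 values, and whether that RNA had a part in them was not tested.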

How the results depend on the processing

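Of 34 members under 11 other settings, 346 of the log2 fold changes kept direction and side of the threshold. The number of all genes called was 1032, with 648 at a mean of at least 50, 637 with spike-in scaling (590 with robust moderation and 193 with each gene's own spread), 1569 with DESeq2, 475 without both Con-DHT libraries with muscle markers, and 633 to 905 with 1 library left out. Of the members, 3 passed, with 7 under equal totals without the Mup genes, 0 under spike-in scaling with any of these moderations, 7 with DESeq2, 1 without both muscle-marked libraries and 1 to 3 with 1 library left out. Scaling moved all genes together: the median of all genes was 0.090 without Mup and 0.19 with spike-ins. The mitochondrial median became 0.19 and 0.29 under these, that of both organelles 0.24 and 0.34, and the peroxisomal median 0.49 with spike-ins.

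Signs turned for members near 0. Under equal totals without the Mup genes the log2 fold changes were 0.013 for Acadm, 0.074 for Acadvl, 0.083 for Acad10, 0.012 for Hadh, 0.00031 for Ech1 and 0.086 for Etfa. With spike-ins they were 0.11 for Acadm, 0.17 for Acadvl, 0.18 for Acad10, 0.11 for Hadh, 0.088 for Echs1, 0.10 for Ech1, 0.043 for Crot, 0.19 for Etfa and 0.059 for Etfb. Without both muscle-marked libraries they were 0.098 for Acad10, 0.030 for Hadh, -0.054 for Ehhadh and -0.00083 for Crat. With 1 library left out, the ranges crossed 0 for Acadm (-0.16 to 0.012), Acad10 (-0.14 to 0.090), Hadh (-0.19 to 0.014), Ehhadh (-0.050 to 0.28) and Etfa (-0.042 to 0.017). The summed thiolases ranged from 0.19 to 0.38. The causes of these differences between settings were not tested.

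The replicate numbers are shared between the groups, but same-numbered mice did not deviate together (correlations of -0.19, -0.0060, -0.02 and -0.08, none the best match). With the replicate block, 700 genes and 1 member, Cpt1a (adj P 0.042), passed. With 4 mice a group, libraries of the same group differed by more than counting error (chi-square per degree of freedom 19.2 to 61.6). Each mouse gave 1 library, so differences between mice and between tissue pieces or libraries cannot be told apart.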
